A study of Mus musculus with 12 samples.

Results

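The comparison was between livers of mice fasted for 72 h and livers of fed mice, at the level of messenger RNA. All mice were males of the FVB inbred strain, 6 weeks old, with free access to water. The fasted mice had their chow taken away 72 h before they were killed, were held in metabolic cages so that they could not eat bedding, and were warmed by an infrared lamp from 24 h on. The fed mice had chow until they were killed, and all livers were taken in the morning. The RNA of 2 livers was pooled for every array and labelled with the dye Cy3, and it was hybridised beside a Cy5-labelled reference made from the pooled livers of 6 fed mice. The labels do not say whether those 6 are the mice of the fed arrays, and the dyes were never exchanged. Members were the 3 arrays titled for 72 h and the 3 titled for 0 h, 6 of the 12 arrays of the series, and on them all probes that are neither controls nor retired, 20280 in number. Each probe was read as the log2 ratio of liver sample over reference, so that 0 stands for the level of the fed pool, and a difference of 1 between groups is a doubling.

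A fasting liver first empties its glycogen and then makes glucose from amino acids, glycerol and lactate under the drive of glucagon and glucocorticoid hormone. It burns fatty acids released by adipose tissue and exports ketone bodies, while the synthesis of fatty acids and sterols, which insulin and feeding promote, is turned down. Carbon skeletons of amino acids enter gluconeogenesis once their amino nitrogen is removed, in part by transaminases, and much of that nitrogen is disposed of as urea.

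The arrays were of like brightness in the sample channel. The median sample signal was 7.59 to 10.6 times the local background, and 98.2% to 99.3% of probes were well above background. The reference channel was dimmer, at 2.69 (fed 3) to 3.98 (fed 1) times background. The ratios of fed 3 correlated at 0.07 with fed 1 and 0.13 with fed 2, and those of fed 1 and fed 2 at 0.53. The 72 h arrays correlated with each other at 0.52 to 0.82, and with fed arrays at -0.0063 to 0.60. The scanner software marked 0.745%, 24.7% and 14.1% of probes as outlier spots on the fed arrays 1, 2 and 3, against 3.15% to 6.29% on the 72 h arrays. These spots were left out, so that a probe could have 2 values in a group, and 18939 probes were tested. Fed 1 was quantified by the software on another day than fed 2, fed 3 and the 72 h arrays. The passing genes and the lists are therefore also read against fed 2 and fed 3 alone, called here the fed arrays of the same day, although that leaves at most 2 fed pools. The 4 hepatocyte markers that had a probe (Apoa1, Ttr, Trf and Cyp2e1) were well above background on all 6 arrays.

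After 72 h of fasting 40 of the 18939 probes passed, which is 0.211% of those tested. A probe passed when its adjusted p was under 0.05 and its change was at least 1.4-fold. Of these, 31 were upregulated (0.164%) and 9 were downregulated (0.0475%). Among the upregulated genes were those of metallothioneins, of the transaminase Got1, of the apolipoprotein Apoa4 and of known targets of glucocorticoid hormone. Among the downregulated genes were those of sterol and unsaturated fatty-acid synthesis and of acyl-CoA handling. At a looser threshold, an unadjusted p under 0.01 with the same fold minimum, 743 probes (3.92%) were counted, 471 higher (2.49%) and 272 lower (1.44%). Counts of list members below are to be read beside these shares of all tested probes. The median log2 difference over all tested probes was -0.02, and 90% of probes lay between -0.39 and 0.46. The number passing rested on single arrays and on the scaling: it was 4 without fed 1, 4 without fed 2, 20 without fed 3, 198 without 72 h replicate 1, 19 without 72 h replicate 2 and 136 without 72 h replicate 3. It was 16 after loess scaling within each array and 0 from the sample channel alone (1058 probes at an unadjusted p under 0.05), while the direction of all 40 was kept under every setting. Where 1 array was left out, the direction was fixed in advance, since the groups did not overlap at any of the 40.

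**Figure D1:**
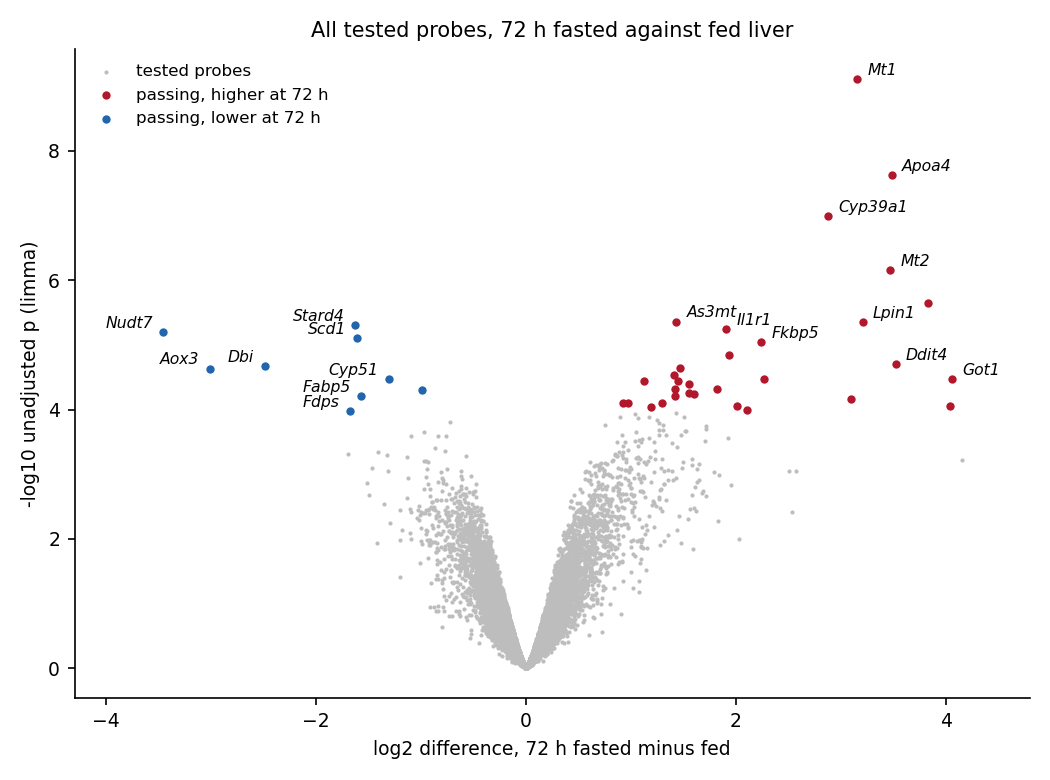
Log2 difference between 72 h fasted and fed liver (horizontal axis) against -log10 of the unadjusted limma p (vertical axis) for the 18939 tested probes. Red points are the 31 probes that passed and were higher at 72 h, blue points the 9 that passed and were lower; Mt1, Apoa4, Cyp39a1 and Mt2 stand highest on the vertical axis.

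All 40 probes kept their direction against the fed arrays of the same day, with a change of at least 1.4-fold and an unadjusted p under 0.01. For 2 of them, Slc37a4 and Ahcy, a single fed array of that day had a value, so that their comparison rests on 1 fed pool. Against all fed arrays the fed and fasted arrays of all 40 did not overlap, as also held for 3.47% (higher) and 2.11% (lower) of tested probes at 1.4-fold. Direction and lack of overlap against fed 2 and fed 3 followed from this and were no further test. The fold and p there come from arrays that also chose the 40 probes, so they are not a separate test either. The log2 difference against fed 2 and fed 3 was a median of 0.99 times that against all fed arrays. Only 4 probes, those of Mt1, Apoa4, Mt2 and Cyp39a1, passed the adjusted threshold there (0.0211% of those tested), while 618 (3.26%) passed the looser one. The other passing probes kept a change of at least 1.4-fold, but their adjusted p in limma was 0.0664 to 0.207 once fed 1 was left out. The Cy5 reference is the same pool on every array, yet at 15 of the 40 probes its channel differed by more than 0.5 between the groups; the difference of the sample channel itself is given below for several of them.

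**Figure D2:**
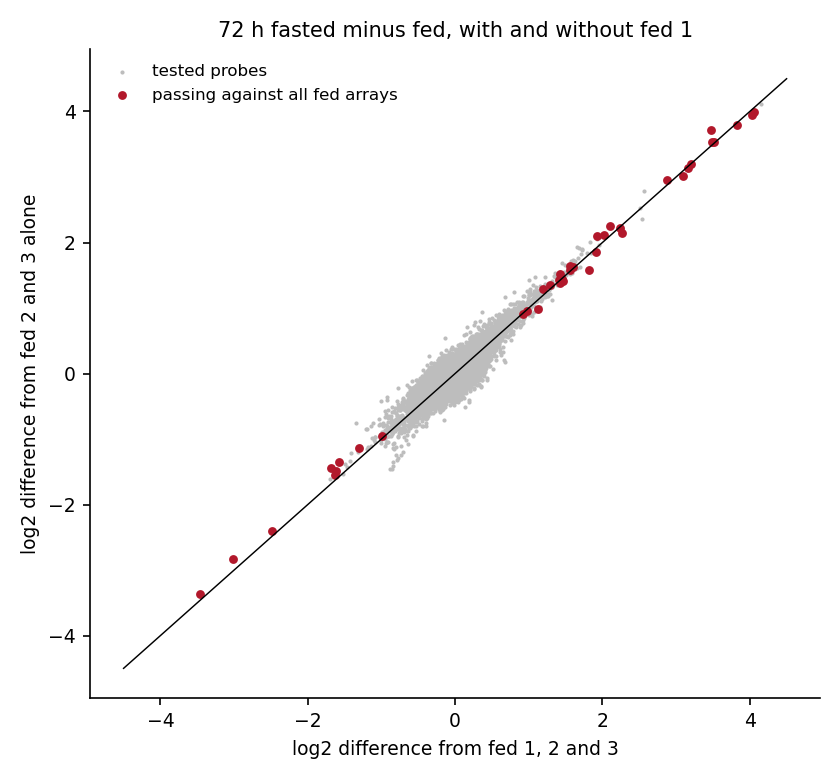
Log2 difference of 72 h fasted liver from all fed arrays (horizontal axis) against that from fed 2 and fed 3 alone (vertical axis) for the tested probes. Red points are the 40 probes that passed against all fed arrays, and the line marks equal values; the red points lie along it.

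The metallothioneins, small cysteine-rich proteins that bind zinc and copper and are known targets of glucocorticoid hormone, were among the largest increases. The log2 ratio of Mt1 was -0.24, -0.09 and -0.24 in the fed pools and 2.92, 3.00 and 2.98 in the 72 h pools. The groups were 3.16 ± 0.11 apart (SE, 8.93-fold, adjusted p = 1.46e-05). For Mt2 the fed pools stood at 0.46, -0.46 and -0.09 and the 72 h pools at 3.79, 3.56 and 2.97, a difference of 3.47 ± 0.27 (11.1-fold, adjusted p = 0.0033). Both probes were saturated in the first and second 72 h pools, and 1 of the 3 fasted values of each was measured below the scanner's ceiling. That pool, the third, stood at 2.98 for Mt1 and 2.97 for Mt2, above all fed pools, and neither the spread among the 72 h pools nor the p can be read as precision here. Compared with fed 2 and fed 3 alone the differences were 3.13 (adjusted p = 0.000238) and 3.72 (adjusted p = 0.0057). The probe of Mt2 is named from one of the array's annotations, the other giving only a locus number, and the letters of the probes were not used here, so reading of the one transcript by the probe of the other was not tested.

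The genes of both lie next to each other on mouse chromosome 8. The 250 bases before their annotated starts are shown because transcription of metallothionein genes answers to metal through response elements. They are taken from RefSeq (build GRCm38.p6, plus strand, chr8:94178839-94179088 for Mt1 and chr8:94172368-94172617 for Mt2) and written 5' to 3'. Capitals mark the letters TGCNCNC on either strand, found 1 time in the window of Mt1 and 5 times in that of Mt2. They are a wider form of the core of the metal response element, which has A or G after TGC. The matches GGGAGCA (read on the other strand) and TGCTCTC of Mt2 have T there, so they are not that core. Bases outside these windows were not searched, so the counts do not compare the elements of Mt1 with those of Mt2. The letters TGCNCNC are in 44.4% of all 32851 promoter windows of that length, so a match is only a description.
Mt1: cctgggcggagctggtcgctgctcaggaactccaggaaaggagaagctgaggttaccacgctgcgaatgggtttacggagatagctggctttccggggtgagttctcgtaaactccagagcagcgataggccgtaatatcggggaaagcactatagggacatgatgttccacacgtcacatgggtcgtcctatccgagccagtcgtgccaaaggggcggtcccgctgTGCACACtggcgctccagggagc
Mt2: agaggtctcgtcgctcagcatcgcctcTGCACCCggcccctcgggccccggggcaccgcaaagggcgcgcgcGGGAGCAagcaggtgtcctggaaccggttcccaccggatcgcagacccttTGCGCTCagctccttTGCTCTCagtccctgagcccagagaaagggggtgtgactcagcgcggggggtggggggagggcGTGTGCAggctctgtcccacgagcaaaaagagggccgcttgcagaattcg

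The list of glucocorticoid and cyclic-AMP target genes had 17 tested members, of which 5 rose (Mt1, Mt2, Lpin1, Fkbp5 and Ddit4) and none fell. Its members were chosen with earlier results of these data known, so its contrast with all probes may be partly built in. At the looser threshold 11 of the 17 (64.7%, beside 3.92% of all probes) were counted, all higher. The list's median log2 difference was 1.12 against -0.02 over all probes. It was 1.29 against the fed arrays of the same day, where 8 of the 17 were counted, and 0.86 from the sample channel read without the reference. The list's median log2 ratio was 0.08, 0.03 and -0.12 in the fed pools and 1.19, 1.94 and 1.04 in the 72 h pools. Lpin1 encodes a phosphatidate phosphatase that also acts as a coactivator of fasting genes. Its log2 ratio was -0.41, -0.69 and -0.06 in the fed pools and 2.73, 3.54 and 2.20 in the 72 h pools (difference 3.21 ± 0.31, adjusted p = 0.0118; 3.20 against the same day). Fkbp5, a co-chaperone of the glucocorticoid receptor, stood at 0.11, 0.13 and 0.22 in the fed pools and at 1.82, 2.91 and 2.44 in the 72 h pools (difference 2.24 ± 0.24, adjusted p = 0.0144; 2.22 against the same day). Ddit4, an inhibitor of the growth kinase mTORC1, had ratios of 0.08, 0.17 and -0.12 against 4.03, 4.25 and 2.41. The third 72 h pool was the lowest, and the difference was 3.52 ± 0.42 (11.5-fold, adjusted p = 0.026), and 3.54 against the same day. Other members had values short of the adjusted threshold, with differences of 0.87 for Pck1 (adjusted p = 0.0801), 1.58 for Cebpd, 1.11 for Klf9, 1.28 for Sgk1 and 0.64 for Cebpb. Pck1 encodes the cytosolic phosphoenolpyruvate carboxykinase that commits carbon to glucose. Its ratios were 0.31 and 0.31 in the 2 fed pools with a value and 1.01, 1.32 and 1.20 in the 72 h pools, with no overlap. Ppargc1a, a coactivator of gluconeogenic genes, differed by -0.12 and Tsc22d3, another glucocorticoid target, by 0.23.

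**Figure D3:**
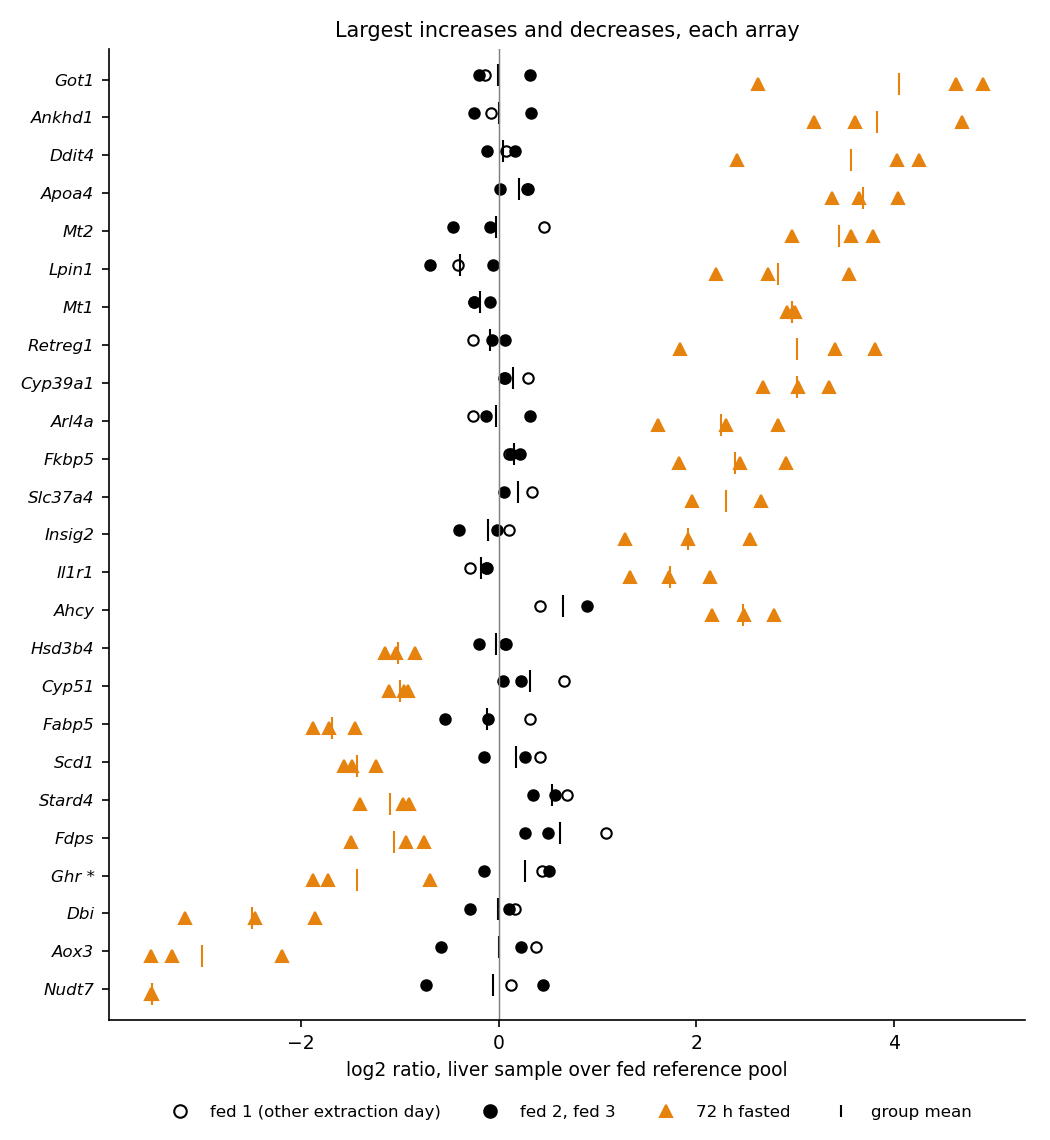
Log2 ratio of liver sample over fed reference pool (horizontal axis) on each array for the genes chosen by size of change: the 15 largest increases and the largest decreases among passing probes, with Ghr filling the last place from the looser threshold. Larger changes that did not pass, such as that of Ctsl, are not drawn. Circles are fed arrays (fed 1 open), triangles 72 h arrays, and short vertical lines group means; the groups of every gene are apart, and Ghr, marked by an asterisk, did not pass the adjusted threshold.

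Got1 encodes the cytosolic aspartate aminotransferase, which moves amino nitrogen between glutamate and oxaloacetate. At one of its probes the ratios were -0.14, 0.32 and -0.19 in the fed pools and 4.62, 4.91 and 2.63 in the 72 h pools. The difference of 4.06 ± 0.51 was the largest among the passing probes (16.7-fold, adjusted p = 0.0296), with the third 72 h pool well under the others. The second, brighter probe of Got1 differed by 1.95 ± 0.42 (adjusted p = 0.128), with 2.45, 2.66 and 0.77 in the 72 h pools, so that the probes share the direction and not the size. Compared with fed 2 and fed 3 alone the differences were 3.99 and 1.97.

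Of the 8 tested genes of the urea cycle and ammonia handling none passed, and all 8 had a difference above 0. At the looser threshold 4 (50%, beside 3.92% of all probes) were counted. The list's median difference was 0.69, against 0.83 with the fed arrays of the same day (3 counted) and 0.31 from the sample channel alone. Oat, ornithine aminotransferase, had ratios of -0.20, 0.47 and -0.69 in the fed and 1.38, 2.04 and 1.05 in the 72 h pools (difference 1.63, adjusted p = 0.109). The differences were 0.92 for Prodh, proline dehydrogenase, and 0.96 for Slc25a15, the mitochondrial ornithine carrier, with no overlap of the groups at either probe. Ass1, argininosuccinate synthase, stood at 1.19 and 0.85 in the fed and at 1.62, 2.11 and 1.55 in the 72 h pools (difference 0.74, adjusted p = 0.201). Asl, the enzyme that follows it, kept a single unflagged 72 h value, 4.07 beside 1.16 and 1.01 in the fed pools, and was not tested.

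In the metabolism of sulphur amino acids and methyl groups 1 of 14 tested genes rose. At the looser threshold 4 (28.6%, beside 3.92% of all probes) were counted, all higher. The list's median was 0.29, and 0.06 from the sample channel alone. Ahcy splits S-adenosylhomocysteine, the product of methylation, and had ratios of 0.42 and 0.89 in the fed and 2.48, 2.78 and 2.16 in the 72 h pools. It rose by 1.82 ± 0.22 (3.52-fold, adjusted p = 0.0351), and by 1.58 against the single fed array of the same day that had a value. Mat1a, which makes S-adenosylmethionine in liver, stood at 1.01 and 0.96 against 3.51, 4.46 and 2.52 (difference 2.51, adjusted p = 0.109), the second 72 h pool being saturated. The differences were 1.26 for Cdo1, cysteine dioxygenase (adjusted p = 0.0622), and 1.29 for Cth, cystathionine gamma-lyase (adjusted p = 0.17). Fed 3 had no unflagged value for any of these 4 genes. Among 27 tested genes of amino-acid catabolism none passed and 1, Got1 at its brighter probe, was counted at the looser threshold (3.7%, beside 3.92% of all probes). Tdo2, tryptophan dioxygenase, had a difference of 0.76 (adjusted p = 0.235), Gldc of 0.61 and Aldh6a1 of 0.32.

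Apoa4, an apolipoprotein of triglyceride-rich particles, rose 11.2-fold. Its ratios were 0.30, 0.29 and 0.02 in the fed and 3.37, 4.04 and 3.65 in the 72 h pools (difference 3.48 ± 0.18, adjusted p = 0.000224). Compared with fed 2 and fed 3 alone the difference was 3.53 (adjusted p = 0.00424). It was the 1 of 10 tested genes of apolipoproteins and lipoprotein handling that passed. Scarb1, the receptor for high-density lipoprotein, had a difference of 1.21 (adjusted p = 0.153), Abca1 of 0.54, Mttp of 0.36 and Lrp1 of -0.68. Cyp39a1, an oxysterol 7-alpha-hydroxylase of bile-acid synthesis, had ratios of 0.30, 0.07 and 0.06 in the fed and 2.67, 3.35 and 3.03 in the 72 h pools. It rose by 2.88 ± 0.18 (7.34-fold, adjusted p = 0.000639), and by 2.96 against the fed arrays of the same day (adjusted p = 0.0057). The other 7 tested genes of bile-acid synthesis and transport did not pass, and 6 of the list's 8 had a difference below 0, among them Cyp7b1 with -0.76 and Hsd3b7 with -0.72.

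In the list of gluconeogenesis and glycolysis, Slc37a4, which carries glucose 6-phosphate into the endoplasmic reticulum for the last step of glucose release, passed as 1 of 15. It had ratios of 0.33 and 0.06 in the fed and 1.95 and 2.65 in the 72 h pools, the other spots being flagged. Its difference was 2.11 ± 0.25 (adjusted p = 0.0489), close to the threshold, and 2.25 against fed 3. The reference channel of this probe was itself 1.00 lower on the 72 h arrays, so that 1.11 of the difference lay in the sample channel. Over the list 12 of 15 genes had a difference above 0 and the median was 0.19. Aldoa, an aldolase, had a difference of 0.39, not past the adjusted threshold.

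Insig2, which holds the sterol sensor SCAP in the endoplasmic reticulum and so restrains sterol synthesis, was the 1 gene of the cholesterol list that rose. Its ratios were 0.11, -0.02 and -0.40 in the fed and 1.92, 2.54 and 1.28 in the 72 h pools (difference 2.01 ± 0.29, adjusted p = 0.0455; 2.12 against the same day). Retreg1, a receptor for the autophagy of endoplasmic reticulum, stood at -0.25, -0.07 and 0.07 in the fed and at 3.40, 3.81 and 1.83 in the 72 h pools. It rose by 3.10 ± 0.43 (8.57-fold, adjusted p = 0.0407; 3.01 against the same day), while a second probe, with 2 arrays left in each group, differed by 1.08 (adjusted p = 0.454). Arl4a, a small GTP-binding protein, had ratios of -0.26, 0.32 and -0.13 against 2.30, 2.83 and 1.61 (difference 2.27 ± 0.29, adjusted p = 0.0296; 2.15 against the same day). Il1r1, the signalling receptor for interleukin 1, had ratios of -0.29, -0.12 and -0.13 against 1.73, 2.14 and 1.33 (difference 1.91 ± 0.19, adjusted p = 0.0118; 1.86 against the same day). In each of these genes the second 72 h pool was the highest and no array of the groups overlapped. A probe named Ankhd1 through the name of a cDNA clone differed by 3.83 ± 0.34 (14.2-fold, adjusted p = 0.00854), from -0.08, -0.25 and 0.33 to 3.61, 4.69 and 3.19. Its name is uncertain, since the other probes of Ankhd1 differed by 0.11 and -0.23, neither passing.

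Among 42 tested genes of lysosome and autophagy none passed, with a list median of 0.02. At the looser threshold 4 (9.52%, beside 3.92% of all probes) were counted, all higher. Ctsl, the lysosomal protease cathepsin L, had ratios of -0.12, 0.25 and -0.28 in the fed and 5.23, 5.23 and 1.85 in the 72 h pools. Its difference of 4.16 was the largest in any list, and with the third 72 h pool far under the others its adjusted p was 0.105; the second was saturated. Map1lc3b, which coats autophagosomes, stood at 0.12, 0.09 and -0.15 against 1.20, 1.80 and 0.97 (difference 1.30, adjusted p = 0.0647). Gabarapl1, a relative of it, differed by 0.71 and the cargo receptor Sqstm1 by 0.75.

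The largest decrease among passing probes was that of Nudt7, a peroxisomal hydrolase that cleaves coenzyme A and acyl-CoA. Its ratios were 0.12, 0.45 and -0.73 in the fed pools and -3.51 and -3.51 in the 2 fasted pools with a value. It fell by 3.46 on the log2 scale (SE 0.31, 11-fold, adjusted p = 0.0119), and by 3.37 against the fed arrays of the same day. Aox3, an aldehyde oxidase that also acts on drugs, had ratios of 0.38, 0.23 and -0.58 against -3.52, -3.30 and -2.19, and fell by 3.01 (SE 0.36, adjusted p = 0.026), and by 2.83 against the same day. Dbi, which binds acyl-CoA esters in the cytosol, had ratios of 0.16, 0.10 and -0.29 against -3.17, -2.46 and -1.85, and fell by 2.49 (SE 0.30, 5.62-fold, adjusted p = 0.026), and by 2.40 against the same day. In all of these the third fed pool was the lowest of its group, and it still stood above every fasted pool. Fabp5, a fatty-acid binding protein, had ratios of 0.31, -0.11 and -0.54 against -1.72, -1.88 and -1.45, and fell by 1.57 (SE 0.21, adjusted p = 0.0378), and by 1.36 against the same day. Hsd3b4, of the 3-beta-hydroxysteroid dehydrogenase family, had ratios of 0.07, 0.07 and -0.20 against -0.85, -1.15 and -1.04, and fell by 0.99 (SE 0.13, 1.99-fold, adjusted p = 0.0351), and by 0.95 against the same day. Members of this family are closely alike, and whether the probe also reads others was not tested. Ghr, the growth hormone receptor, stood at 0.44, 0.51 and -0.15 against -1.88, -1.73 and -0.69. Its difference of -1.70 was counted at the looser threshold and did not pass the adjusted one (adjusted p = 0.103).

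Of the lists, that of sterol synthesis had the most genes counted lower. Cholesterol is built from acetyl-CoA by way of mevalonate, farnesyl diphosphate and lanosterol, under the transcription factor SREBP-2. Of 21 tested genes of cholesterol synthesis and uptake, each read at its brightest probe, 2 fell (Cyp51 and Fdps) and 1 rose (Insig2). A dimmer probe of Stard4 also fell and is not in this count. At the looser threshold 8 were counted lower and 1 higher (together 42.9%, beside 3.92% of all probes), and 17 of the 21 had a difference below 0. The list's median was -0.41, and -0.26 against the fed arrays of the same day, where 5 were counted lower, and -0.63 from the sample channel alone. Fed 1 was the highest fed pool for most of these genes, with a list median of 0.36 beside 0.14 and -0.10 in fed 2 and fed 3.

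**Figure D4:**
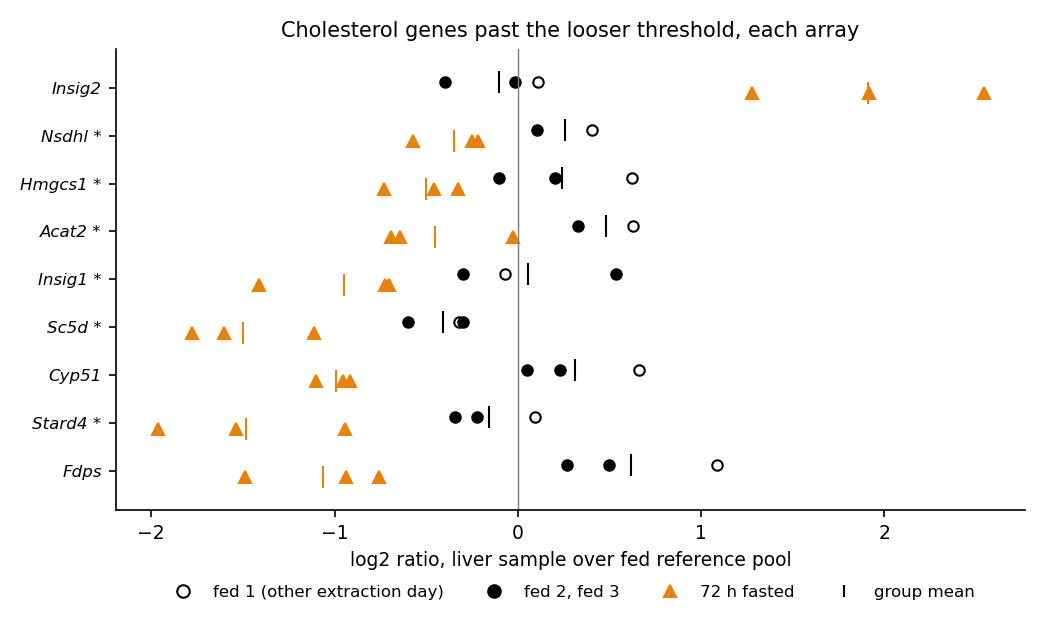
Log2 ratio of liver sample over fed reference pool (horizontal axis) on each array for the 9 genes of cholesterol synthesis and uptake counted at the looser threshold, of 21 tested, with 1 probe for each gene. Circles are fed arrays (fed 1 open), triangles 72 h arrays, and short vertical lines group means. An asterisk marks a gene that did not pass at the probe drawn, the brightest of the gene. Fdps and Cyp51 fell and Insig2 rose. A dimmer probe of Stard4 passed and is not drawn here.

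Fdps, which makes farnesyl diphosphate, had ratios of 1.09, 0.50 and 0.27 in the fed and -1.49, -0.76 and -0.94 in the 72 h pools. It fell by 1.68 (SE 0.25, 3.2-fold, adjusted p = 0.0494), and by 1.44 against the fed arrays of the same day. Cyp51, lanosterol 14-alpha-demethylase, stood at 0.66, 0.23 and 0.05 against -0.92, -0.96 and -1.10, and fell by 1.31 (SE 0.17, 2.47-fold, adjusted p = 0.0296), and by 1.13 against the same day. A second probe of Cyp51 differed by -0.67 (adjusted p = 0.143), the same way and by less. Stard4 encodes a protein that carries sterols between membranes. One of its probes fell by 1.63 (SE 0.16, adjusted p = 0.0118; -1.55 against the same day), from 0.69, 0.57 and 0.35 to -1.40, -0.91 and -0.97, while the others differed by -1.32 (adjusted p = 0.104) and -0.46 (adjusted p = 0.213). Short of the adjusted threshold were Sc5d with -1.09 (adjusted p = 0.0746), Insig1 with -1.0 (adjusted p = 0.17), Acat2 with -0.93, Hmgcs1 with -0.75 and Nsdhl with -0.60, all counted at the looser one. Sc5d and Nsdhl act in late sterol synthesis, Acat2 and Hmgcs1 supply its first steps, and Insig1 is the partner of Insig2 that SREBP-2 itself induces.

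The 250 bases before the start of Cyp51 are shown because sterols act on such genes through the promoter (RefSeq, GRCm38.p6, minus strand, chr5:4104698-4104947, written 5' to 3' along the gene). Capitals mark the 1 match of the sterol regulatory element letters TCACCTCA, searched on both strands with the letters TCACCCCA, which are in 0.947% and 1.34% of all promoter windows. No change of these letters or of binding to them was measured.
Cyp51: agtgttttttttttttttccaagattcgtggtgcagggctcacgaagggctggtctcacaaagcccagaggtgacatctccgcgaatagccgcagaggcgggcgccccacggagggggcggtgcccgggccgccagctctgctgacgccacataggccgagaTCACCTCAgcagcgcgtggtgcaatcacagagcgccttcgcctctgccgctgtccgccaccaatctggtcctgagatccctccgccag

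Scd1, which puts the double bond into newly made fatty acids, was the 1 of 15 tested genes of fatty-acid synthesis that passed. It stood at 0.42, 0.27 and -0.15 in the fed and at -1.49, -1.24 and -1.56 in the 72 h pools, and fell by 1.61 (SE 0.17, 3.05-fold, adjusted p = 0.0134), and by 1.49 against the same day. At the looser threshold 3 members (20%, beside 3.92% of all probes) were lower and none higher (1 and none against the same day). A difference below 0 was seen in 12 of the 15 (median -0.19). Acly, which makes cytosolic acetyl-CoA, differed by -0.89 (adjusted p = 0.195), the desaturase Fads1 by -0.55 and the fatty acid synthase Fasn by -0.35. In the sample channel alone the differences were larger than in the ratios, with -2.23 for Scd1, -2.06 for Fdps, -2.14 for the passing probe of Stard4 and -1.54 for Acly, the reference channel reading 0.38 to 0.65 lower on the 72 h arrays.

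The genes that burn fatty acids gave no passing member in mitochondria or peroxisomes. Of 18 tested genes of mitochondrial fatty-acid oxidation none passed and none was counted at the looser threshold, 10 were above 0 and 8 below, and the median was 0.04, or -0.35 when the sample channel was read without the reference. The medium-chain dehydrogenase Acadm stood at 0.38, 0.51 and -0.10 in the fed and at 0.52 and 1.16 in the 72 h pools with a value (difference 0.58, adjusted p = 0.407). Of 5 tested ketone genes none passed or was counted, and their median difference was 0.06, or -0.34 from the sample channel alone. Of 12 tested genes of peroxisomal and omega oxidation none passed, and 1 (8.33%, beside 3.92% of all probes) was counted at the looser threshold, the acyl-CoA thioesterase Acot1 (difference 0.54). Crot, carnitine octanoyltransferase, differed by -1.42 with overlapping arrays. Among 12 other targets of the fasting receptor PPAR-alpha, Lpin1 passed, and the lipid-droplet protein Plin2 differed by -1.03 (adjusted p = 0.166) and the lipase Pnpla2 by 0.76.

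In the insulin and IGF axis none of 16 tested genes passed, and 4 were counted higher and 1, Ghr, lower (together 31.2%, beside 3.92% of all probes). Igfbp2, a binding protein for insulin-like growth factors, stood at 0.85, 0.59 and 0.14 against 1.75, 2.70 and 1.60 (difference 1.49, adjusted p = 0.109). The fasting-activated transcription factor Foxo1 differed by 0.95, Foxo3 by 0.54 and the cytokine-signal inhibitor Socs2 by 1.29, with no overlap between the groups. Igf1 itself differed by 0.03. In the cell-cycle list 1 of 41 genes was counted (2.44%, beside 3.92% of all probes), the cyclin-kinase inhibitor Cdkn1a. It stood at -0.23 and 0.12 in the fed and 3.05, 3.36 and 1.02 in the 72 h pools (difference 2.53, adjusted p = 0.17, and 2.36 against the 1 fed value of the same day). In apoptosis 1 of 26 passed, the death-associated kinase Dapk1 with a difference of 1.41, of which 0.77 lay in the sample channel and the rest in a lower reference, and the survival factor Mcl1 differed by 1.62.

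The other lists had few genes past either threshold. The share counted at the looser one was 15.4% in the tricarboxylic-acid, 18.8% in the heat-shock and 21.7% in the antioxidant list. It was 16.7% in the acute-phase, 7.69% in the glycogen and 9.09% in the clock list, beside 3.92% of all probes. The median was 0.03 for the 23 tested genes of the integrated stress and unfolded-protein response, of which none passed or was counted; Trib3 differed by 1.09 and Atf4 by 1.00. None of the 26 tested genes of the tricarboxylic-acid cycle passed, with 3 counted higher (Pdha1 with 0.88 and Fh1 with 1.11 among them) and 1 lower (Idh1 -0.95). Of 16 heat-shock genes none passed and 3 were counted higher, among them the mitochondrial chaperone Hspd1 with 0.84. In the antioxidant list, besides the metallothioneins, Txnrd1 (0.76) and Glrx (0.73) were counted higher and Gpx1 (-0.95) lower. Of 18 acute-phase, complement and coagulation genes none passed; Lbp, which binds bacterial lipopolysaccharide, differed by 1.65 (adjusted p = 0.12) and Ambp by -1.09. Of 13 tested genes of glycogen metabolism none passed and 1, glycogenin, was counted lower at -0.78, but not against the same day (-0.52), where another member was counted higher. The proteasome list (37 genes) had no gene counted, and the clock list (11 genes) had 1, Clock itself at 0.69. Against the fed arrays of the same day no gene was counted lower in the tricarboxylic-acid, antioxidant and acute-phase lists, and 2, 3 and 1 were counted higher. With the sample channel alone the median turned to -0.18 for the tricarboxylic-acid cycle, -0.19 for the proteasome, -0.08 for the stress response and -0.05 for the antioxidant list.

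Of 19 tested genes of P450 and drug metabolism Aox3 fell, 14 had a difference below 0, Gstm6 differed by -0.97 and Cyp17a1 by 0.92. Of 6 tested genes known to be higher in male liver 1 fell (Nudt7), beside 0.0475% of all probes, 5 of the 6 were below 0 and Egfr, the receptor of epidermal growth factor, stood at 1.14 with overlapping arrays at its brighter probe and at 0.74 without overlap at another, neither passing. Of 7 known to be higher in female liver 2 rose (Cyp39a1 and the corepressor Trim24), beside 0.164% of all probes, and 3 were below 0. The male and female lists were chosen with earlier results of these data known, so these contrasts may be partly built in. The female list's median was 0.18, and 0.04 against the fed arrays of the same day. The cytosolic ribosomal proteins had small differences, mostly above 0 (49 of 56 tested genes), with a median of 0.37. None passed, and 6 were counted higher and 1 lower (together 12.5%, beside 3.92% of all probes). Their median ratio was 0.34, 0.36 and -0.14 in the fed and 0.23, 0.94 and 0.85 in the 72 h pools, so that the groups overlapped, and the median turned to -0.06 when the sample channel was read without the reference.

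**Figure D5:**
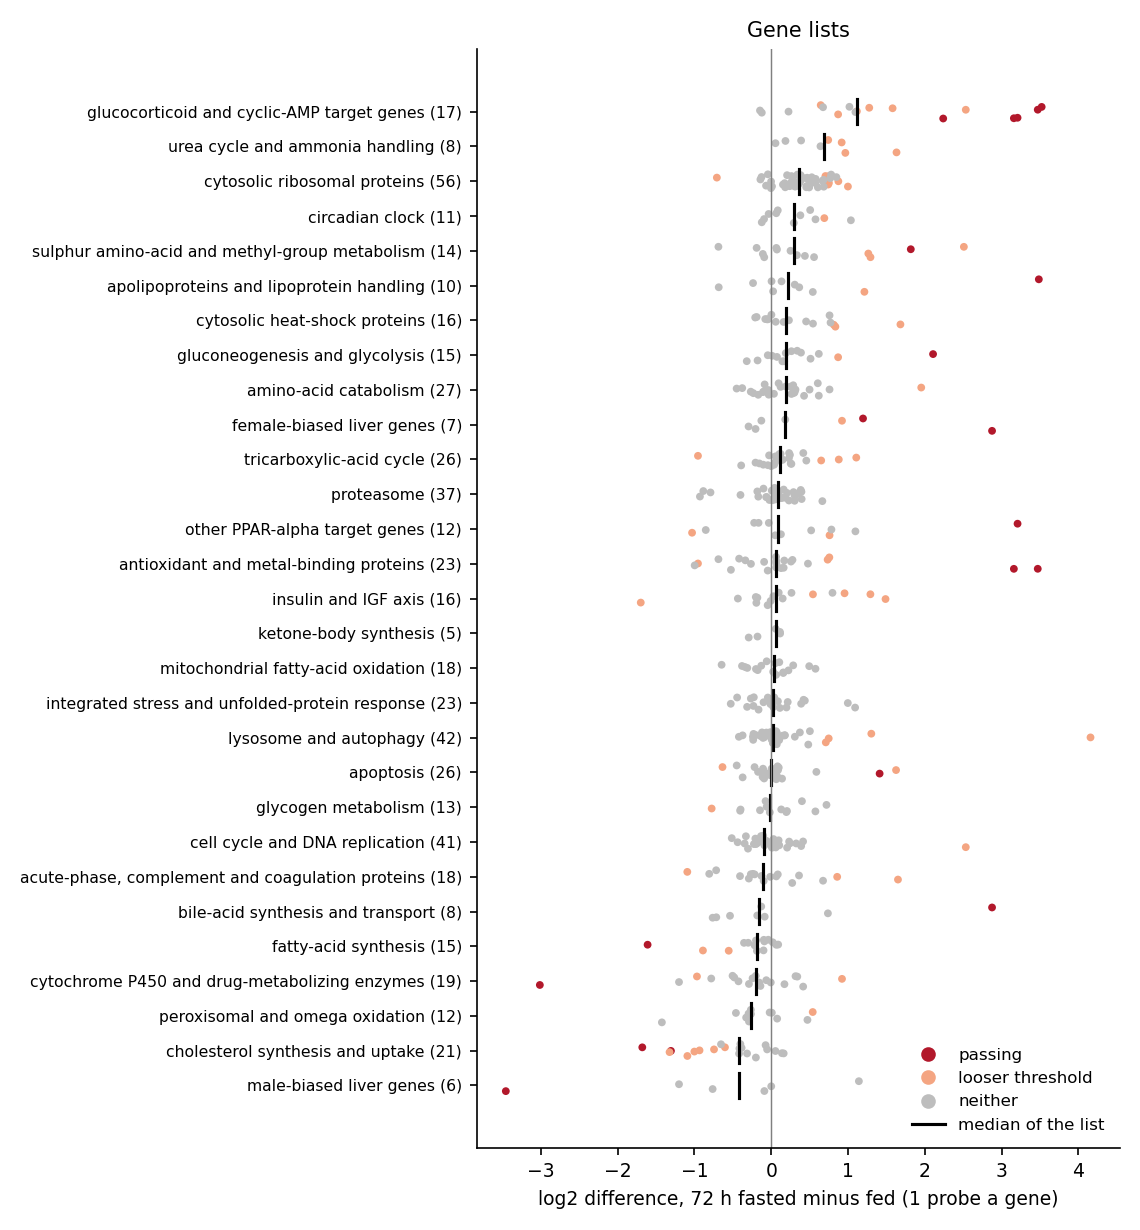
Log2 difference between 72 h fasted and fed liver (horizontal axis) for the tested members of each gene list, with the number tested in brackets. Red points passed, light points were counted at the looser threshold, grey points neither, and black bars are medians. The glucocorticoid and cyclic-AMP list has the highest median, 1.12. The lists were chosen with earlier results of these data known.

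The passing probes outside these groups were looked up after their values were seen. Zfp36l1, an RNA-binding protein that speeds decay of messengers, rose by 1.60, the cold-inducible RNA-binding protein Rbm3 by 1.55 and the early growth response factor Egr1 by 1.55. In the sample channel alone the differences were 1.05 for Zfp36l1, 1.00 for Rbm3 and 1.59 for Egr1. As3mt, arsenite methyltransferase, rose by 1.43 from 0.01, 0.07 and -0.08 to 1.23, 1.68 and 1.38 (adjusted p = 0.0118). Mfsd2a, a carrier of lysophospholipids, rose by 1.42, the mitochondrial folate carrier Slc25a32 by 1.45, Tango2 by 1.47 and the inositol-phosphate kinase Ppip5k2 by 1.42. Probes of Bcor, a corepressor, and Gata6, a transcription factor, rose by 1.12 and 0.92. A second probe of Bcor differed by 0.22, the other probes of Gata6 by 1.23 and -0.84, and at the passing Gata6 probe the reference channel was 0.79 lower, so that both names carry uncertain results. The remaining 4 passing probes have no gene name in the tables used here, and rose by 4.04, 1.93, 1.29 and 0.97.

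Some genes were read beside the 12 h and 24 h arrays, scaled together as 12 arrays. In a contrast of 72 h against 24 h, limma passed 0 of 19725 probes (0%), with 670 at an unadjusted p under 0.05 (3.4%). That count cannot be read as no change between 24 h and 72 h. For 72 h against fed, the same fit of 12 arrays passed 2 probes, beside 40 in the reported comparison. Apoa4 differed by 0.70 ± 0.63 from 24 h to 72 h, while its SE against fed was 0.18 in the reported comparison. The 12 h and 24 h differences below are given without SE, so their precision cannot be read from them. Differences from fed were 2.82 at 12 h, 2.90 at 24 h and 3.60 at 72 h for Apoa4, which was thus already high at 12 h. Of the 40 passing probes, 37 differed from fed by at least 1.4-fold in the same direction at 24 h, and 27 at 12 h. Most of the changes named here were thus not particular to 72 h. Rbm3 was short of that at both hours. It differed by 0.04 at 12 h, -0.10 at 24 h and 1.49 at 72 h, 1.59 ± 0.29 from 24 h to 72 h. Dbi differed by -0.17, -0.83 and -2.49, Ddit4 by 0.84, 1.54 and 3.35, and Egr1 by 2.81, 1.84 and 1.32. These comparisons share the fed arrays.

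Markers of other liver cells were read for the whole lists. The share counted at the looser threshold was 12.5% of macrophage and leukocyte and 8.33% of endothelial and stellate genes. It was 20% of bile duct and 50% of hepatocyte genes, in short lists, beside 3.92% of all probes. Fewer cells of a type and less RNA in each cell cannot be told apart in whole liver. Of 16 tested macrophage and leukocyte genes none passed and 13 lay below 0 (median -0.09, range -1.41 to 0.05). The invariant chain Cd74, needed for antigen presentation, stood at 0.49, 0.37 and -0.59 in the fed and at -1.28, -1.38 and -1.32 in the 72 h pools (difference -1.41, adjusted p = 0.1). H2-Ab1, a class II chain, differed by -0.97, and both were counted at the looser threshold. Of 12 endothelial and stellate genes 1, Vim, was counted lower at -0.52, while Dcn stood at 0.58 and Des at 0.30, neither counted (median -0.09). Of 5 bile duct genes 1, Spp1, was counted lower at -0.64, Krt18 stood at 0.17 and the median was -0.0034; against the same day none was counted. Single tested markers of red cells (Slc4a1, 0.10) and pancreatic acini (Cpa1, 0.14) were near 0, and no adipocyte marker had a probe. Of the 4 hepatocyte markers 2, Ttr and Trf, were counted lower at the looser threshold, and none against the same day. Both were saturated on all 3 fed arrays, Ttr also in the reference channel of 5 arrays, so no fold is given for Ttr, and the difference of Trf, the iron carrier transferrin, was at least 1.77-fold without passing (adjusted p = 0.183), while a second probe of Trf differed by 0.31. Apoa1 was saturated on all 6 arrays and shows no difference that could be read, and Cyp2e1 stood at -0.14. The part of these shifts in the results above was not tested.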

How the data were processed

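The arrays were Agilent two-colour Mouse Development oligonucleotide arrays. Per the file headers, the authors extracted the deposited spot intensities (median signal and background of both dyes) with Feature Extraction 6.1.1, which also gives log10 ratios. The series' deposited table of log10 ratios equals the scanner ratio with its sign turned, within 4.92e-08 over 128676 values, and was not used. Background was corrected by normexp with an offset of 50, the 12 channels of 6 arrays were quantile-normalized, and the log2 ratio of sample (Cy3) over reference (Cy5) was computed from the deposited intensities. Flagged outlier spots were left out, and a test needed at least 2 remaining values per group and, in 1 of the groups, a sample signal that the software called well above background on each array. Groups were compared with limma 3.58.1 in R 4.3.3 (two-sided, Benjamini-Hochberg adjustment over all tested probes). The script was tested on simulated data. The number of arrays limits the precision. The labels number the arrays of a group as replicates, and each pool was hybridised on a single array. The p-values therefore measure the spread between arrays, in which differences between pools and between hybridisations cannot be told apart. Probes were named through the array's annotation and RefSeq (11940 of 20280 probes, 8930 symbols, 280 with annotations in conflict). Probe positions and letters were not used here.

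Genes named are, among passing probes without overlap, the 15 with the largest increases and the 10 with the largest decreases, filled from the looser threshold where too few passed, up to 4 members of each list by lowest p, and Asl, Ass1, Got1 and Pck1 in any case. Members and lists were chosen with earlier results of these data known. Where a gene of a list had several probes, the brightest stood for it. Alternatives were loess, the scanner's own ratio, the sample channel alone, all 12 arrays in 1 fit, plain subtraction, flagged spots kept, other filters, extraction day and replicate number as blocks, array weights, and each array left out. Values of some genes are not reported here.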

Additional observations from a re-analysis of the deposited data

How the results depend on the processing

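The 40 passing probes kept their direction under each of the 17 alternatives, and all were at least 1.4-fold under each except the sample channel alone (39). Where 1 array was left out, the lack of overlap fixed the direction in advance. The extraction day as a block gave the same differences as leaving out fed 1. The number that passed moved far more. It was 16 with loess within each array (12 higher, 4 lower), 5 with the scanner software's log ratio, 0 with the sample channel alone (1058 probes at an unadjusted p under 0.05 in limma), 2 with all 12 arrays in the fit, 3 with plain background subtraction, 6 with the extraction day as a block and 950 with array weights. Leaving out 1 array gave 4 to 198 passing probes: 4 without fed 1, 4 without fed 2, 20 without fed 3, 198 without 72 h replicate 1, 19 without 72 h replicate 2 and 136 without 72 h replicate 3. The share of passing probes that were higher was 77.5% in the reported comparison, 50% without fed 3, 58.1% without the first 72 h array, 58.5% with array weights and 100% with the software's ratio. Keeping flagged spots (52), dropping the filter on dim probes (40) and accepting 1 value per group (47) stayed within 1.5 times. The 743 probes at the looser threshold became 137 with the sample channel alone, 84 with all 12 arrays and 1270 with array weights, and 367 to 1151 when 1 array was left out, lowest without the second and highest without the first 72 h array; against the fed arrays of the same day alone, a setting chosen after seeing the data, they were 618. The 4 probes passing against the fed arrays of the same day became 1 with loess, 1 with the software's ratio, 234 with the sample channel alone and 29 with array weights. The array weights ran from 0.292 for fed 1 to 4.64 for fed 2. The cause of these shifts was not tested. Replicate numbers did not pair the arrays: deviations of arrays with the same number correlated at -0.35, 0.05 and -0.27 over 12320 probes. Those of arrays with other numbers correlated at -0.43 to 0.59, highest for fed 3 with 72 h replicate 1. The replicate block gave 60 passing probes, 31 of them shared with the 40. Signs turned only in genes that did not pass. With the sample channel alone, Aldh6a1 was -0.0063, Rps9 -0.018, Pcna -0.0081, Psma3 0.62 and Slc16a1 0.041. Slc4a1 was -0.096 with the extraction day as a block, -0.086 with array weights and -0.096 to 0.22 when 1 array was left out, turning only without fed 1. Cpa1 was -0.51, -0.22 and -0.51 to 0.78 in the same settings, also turning only without fed 1. Of 2226 values of 131 followed genes and probes under the alternatives, 1794 kept direction and side of the threshold, 338 fell short of it, 83 newly passed it and 11 turned sign.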
